A study of Mus musculus with 22 samples.

Results

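The colon of mice that express PPAR γ in their epithelium was compared at day 2 of dextran sodium sulfate (DSS) and at day 0, before DSS. The comparison holds 6 of the 22 arrays of the series, 3 from VC- mice at day 2 and 3 from VC- mice at day 0, chosen by their genotype and day labels alone. VC- mice carry floxed PPAR γ alleles (PPAR γ fl/fl) and no Villin Cre, so they are the controls of the study and keep PPAR γ. The floxed alleles are shared by all groups. The VC+ mice set beside them further on also carry Cre driven by the Villin promoter, which is active in intestinal epithelial cells and deletes PPAR γ there. The mice at day 2 drank 2.5% DSS in their water, and those at day 0 had not been given DSS. The tissue is labelled colonic mucosa, and RNA was taken from homogenized tissue, so all cell types of the sample contribute. Sexes, ages and the strain background are not in the labels. The study used mice of a mixed FVB/C57BL/6 background and mice crossed back to C57BL/6, and which of them the arrays came from is not stated there. Nor is it stated that every array had its own mouse, so p-values here cover the spread among samples, which may be technical. The arrays hold 18194 genes with 1 probe set each, the one with the largest interquartile range over the 22 arrays. The 9097 genes in the upper 50% by that range were tested.

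DSS damages the colonic epithelium directly. In the first days it thins the mucus barrier and brings bacteria nearer to the cells, and overt inflammation with neutrophils follows later. PPAR γ is a nuclear receptor that is abundant in the colon, binds fatty acids, and turns on genes of lipid uptake, storage and oxidation as a partner of RXR. The colon also has its own map along its length. The proximal colon and cecum, the distal colon and the rectum differ in their Hox genes, hormone cells, transporters and enzymes, so a piece of colon carries a signature of where it was cut.

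All 6 arrays held intestinal epithelium and goblet cells by their markers, which do not tell colon from small intestine. Epcam was at 9.87 to 10.39 at day 2 and 9.82 to 10.23 at day 0. Muc2 was at 15.38 to 15.59 at day 2 and 15.29 to 15.72 at day 0 (log2 signals, as all levels here). Markers of squamous epithelium (Krt5, Krt13, Krt14, Trp63), of red cells (Hba-a1, Alas2) and of the small intestinal brush border (Lct) were at background on all 6 arrays. Fabp6, another small intestinal marker, was above background on all 6 and higher at day 2, as given with the bile acid genes below. Smooth muscle was well represented, with Myh11 at 12.53 to 12.64 at day 2 and 12.20 to 12.96 at day 0. Pairs of these arrays correlated at 0.978 to 0.995. Array properties that do not follow the labels were also present. VC- day 0 replicate 3 had signal of pancreas genes, with the trypsinogen Prss2 at 13.77 there and at 3.27 to 3.82 on the other 5 arrays, and Cela2a at 12.94 and Cpa1 at 13.05 there. Xist, transcribed in females, was high on VC- day 2 replicates 2 and 3 (11.59 and 11.58) and VC- day 0 replicate 2 (11.45), and was near 2.1 on the other 3 arrays, so sexes were mixed within both groups. Hoxb13, a transcription factor gene that marks the most distal gut, was low on every day 2 array and high on every day 0 array, and its values stand beside each group of genes that goes with it.

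Of the 9097 genes tested, 1 differed between VC- day 2 and VC- day 0 at an adjusted p under 0.05 in limma, which is 0.011% of the genes. It was Agr3, and it was lower at day 2. Before adjustment 417 genes had a p under 0.05 (4.58%), 191 of them higher at day 2 (2.1%) and 226 lower (2.48%). A second, descriptive reading asked for no overlap, with all 3 arrays of one day above all 3 of the other. By that reading 712 genes were higher at day 2 (7.83%) and 601 were lower (6.61%), and with a difference of the means of at least 1, which is 2-fold, 168 were higher (1.85%) and 171 lower (1.88%). With 3 arrays against 3 an exact two-sided permutation test of a single gene cannot give a p below 0.10. With 1 array left out, fewer arrays have to separate, so counts of any size can only rise, in a list and over all genes. Shares over all genes for any size are given for 3 arrays against 3 only. The log2 fold change had a median of -0.02 over all genes tested, and the middle 90% of genes lay between -0.82 and 0.71. Same-numbered arrays of the 2 days deviated together, and with the replicate number as a block over the 6 arrays no gene was called, against 1271 with an unadjusted p under 0.05, while the same block within the fit of 22 arrays called Agr3 alone.

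**Figure D1:**
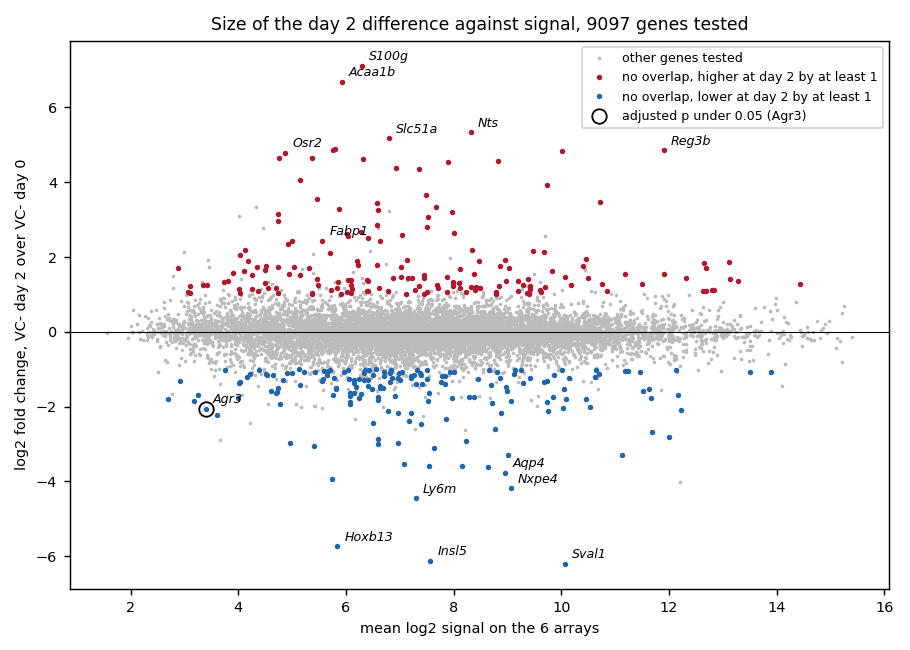
Log2 fold change of VC- day 2 over VC- day 0 (vertical axis) against the mean log2 signal on the 6 arrays (horizontal axis) for 9097 genes, with genes without overlap and a difference of at least 1 in color. The circle marks Agr3, which differs by -2.06 at low signal, while the largest differences, S100g at 7.11 and Sval1 at -6.20, have a wide spread between arrays and do not pass the test.

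Agr3 encodes a protein disulfide isomerase of the anterior gradient family, which its neighbor on chromosome 12, Agr2, also belongs to. Agr2 is the isomerase that goblet cells need to fold Muc2. The signal of Agr3 was 2.35, 2.38 and 2.37 at day 2, against 5.02, 3.78 and 4.48 at day 0. All day 2 arrays lay together near the bottom of the scale, and all day 0 arrays lay above them and were spread. The log2 fold change between these means of 3 arrays was -2.06 ± 0.27 (SE, limma with Benjamini-Hochberg adjustment, adjusted p = 0.00421). The SE and p rest on a spread shared by all 22 arrays, on most of which Agr3 was near the bottom of the scale. They do not measure the spread of the 6 arrays alone. Agr2 was abundant and overlapped between the days, at 14.98, 14.65 and 13.94 at day 2 and 15.00, 14.61 and 14.61 at day 0. Agr3 stayed low on the 4 VC- arrays of day 7, at 2.16 to 2.34. It was also low in VC+ mice, at 2.30 to 3.34 on the 5 arrays of day 2 and at 2.32, 2.73 and 2.37 on the 3 arrays of day 0. The 3 VC- arrays of day 0 thus had the 3 highest signals of Agr3 in the series. Agr3 kept an adjusted p of 0.000464 to 0.0445 when any 1 of the 6 arrays was left out and fell by 2.40 with a term for the Hoxb13 signal. It lost the call with only the 6 arrays in the fit (adjusted p = 0.0992), with the replicate block over them (0.149), with only the 10 VC- arrays (0.204) and without the 3 arrays with Prss2 above 8 (0.0991), and a filter on signal in place of variance leaves it out as too dim.

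The genes whose levels ran most like Agr3 over the 22 arrays were Bcan (Pearson r = 0.82), Eef1akmt1 (0.79), Numb (0.76), Ptger4 (0.74) and Tube1 (0.74). These values only describe, since the arrays of a group share their treatment. Ptger4 encodes a receptor for prostaglandin E2, and its mean was 7.76 at day 2 and 8.63 at day 0. Tube1, which encodes epsilon tubulin of the centriole, was at 5.69, 5.67 and 5.77 at day 2 and at 6.97, 7.30 and 7.45 at day 0. It missed the threshold narrowly, with a log2 fold change of -1.53 ± 0.27 (SE, limma, adjusted p = 0.0532).

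Genes of fatty acid metabolism also missed the threshold narrowly, and these were higher at day 2. Acaa1b, a thiolase of peroxisomal fatty acid oxidation and a known target of PPAR α in mouse liver, was at 8.02, 10.74 and 9.03 at day 2, against 2.65, 2.60 and 2.48 at day 0. The gene was at background on every day 0 array and clearly expressed on every day 2 array, with a log2 fold change of 6.69 (limma, adjusted p = 0.0532). Fabp1, the liver type fatty acid binding protein, was at 7.00, 7.81 and 5.52 at day 2 and at 4.19, 4.30 and 4.54 at day 0, with a log2 fold change of 2.43 (limma, adjusted p = 0.0532). In VC+ mice Fabp1 stayed at 4.10 to 4.43 on all arrays of both days, and Acaa1b at 2.40 to 2.52 except for 4.86 on VC+ day 2 replicate 2. A second, dimmer probe set of Fabp1 differed by 0.27 in VC- mice. It was at 3.34, 3.35 and 2.99 at day 2 and at 2.96, 2.96 and 2.95 at day 0. With a term for Hoxb13 the log2 fold changes were 5.72 for Acaa1b and 2.26 for Fabp1, and without the arrays with Prss2 signal they were 6.64 and 2.53. In limma Acaa1b passed the threshold with only the 6 arrays (adjusted p = 0.0211), with only the 10 VC- arrays (0.00506) and with array weights (0.0204). Fabp1 passed it without VC- day 2 replicate 3 (0.00179). Neither passed it with the Hoxb13 term (0.637 for both) or without the arrays with Prss2 signal (0.280 and 0.332). Leaving out VC- day 2 replicate 2 gave 0.379 for both. Without VC- day 0 replicate 3 the values were 0.381 and 0.380. Fabp1 was at 0.236 with only the 6 arrays and at 0.600 with only the 10 VC- arrays.

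The start region of Fabp1 is shown because PPAR and RXR bind as a pair to a direct repeat of the hexamer AGGTCA with 1 base between the copies. The search used the letters AGGNCANAGGNCA on both strands, which allow a free base at the 4th place of each copy. The window from RefSeq (build GRCm38.p6, chr6:71199629-71199928, plus strand) runs from 250 bases before the start of the gene to 50 after, and the capitals mark the match, which lies on the opposite strand, 67 to 55 bases before the start.
Fabp1: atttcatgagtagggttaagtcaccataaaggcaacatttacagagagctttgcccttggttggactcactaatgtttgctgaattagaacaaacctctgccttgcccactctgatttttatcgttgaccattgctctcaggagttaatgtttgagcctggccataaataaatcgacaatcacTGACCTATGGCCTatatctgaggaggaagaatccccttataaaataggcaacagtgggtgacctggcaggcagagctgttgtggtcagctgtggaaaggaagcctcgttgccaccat
Of 32851 windows of the same length, 125 (0.381%) hold a match, and the window of Acaa1b does not. A match describes the letters only.

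Of 36 listed genes of PPAR signaling and fatty acid oxidation that the array measures, 31 passed the variance filter. Of these, 16 were higher on all day 2 arrays and none was lower on all, beside 7.83% and 6.61% of all genes. Their median log2 fold change was 0.50, beside -0.02 for all genes tested, and it was 0.20 with the Hoxb13 term and -0.17 in VC+ mice. Pparg itself was at 9.87, 10.25 and 10.96 at day 2 and at 9.63, 9.58 and 9.61 at day 0, a difference of 0.75 that did not pass the test and was -0.14 with the Hoxb13 term. Ppara, the receptor of the fasting response, was at 7.63, 8.26 and 7.75 at day 2 and at 6.54, 6.69 and 5.22 at day 0. The other members without overlap were enzymes and carriers with smaller differences, such as Ehhadh of peroxisomal oxidation (log2 fold change 0.93), Cpt1a, the gate of mitochondrial uptake (0.68), and the lipid droplet coat Plin2 (0.58). Fabp2, the intestinal fatty acid binding protein, overlapped between the days (0.23).

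**Figure D2:**
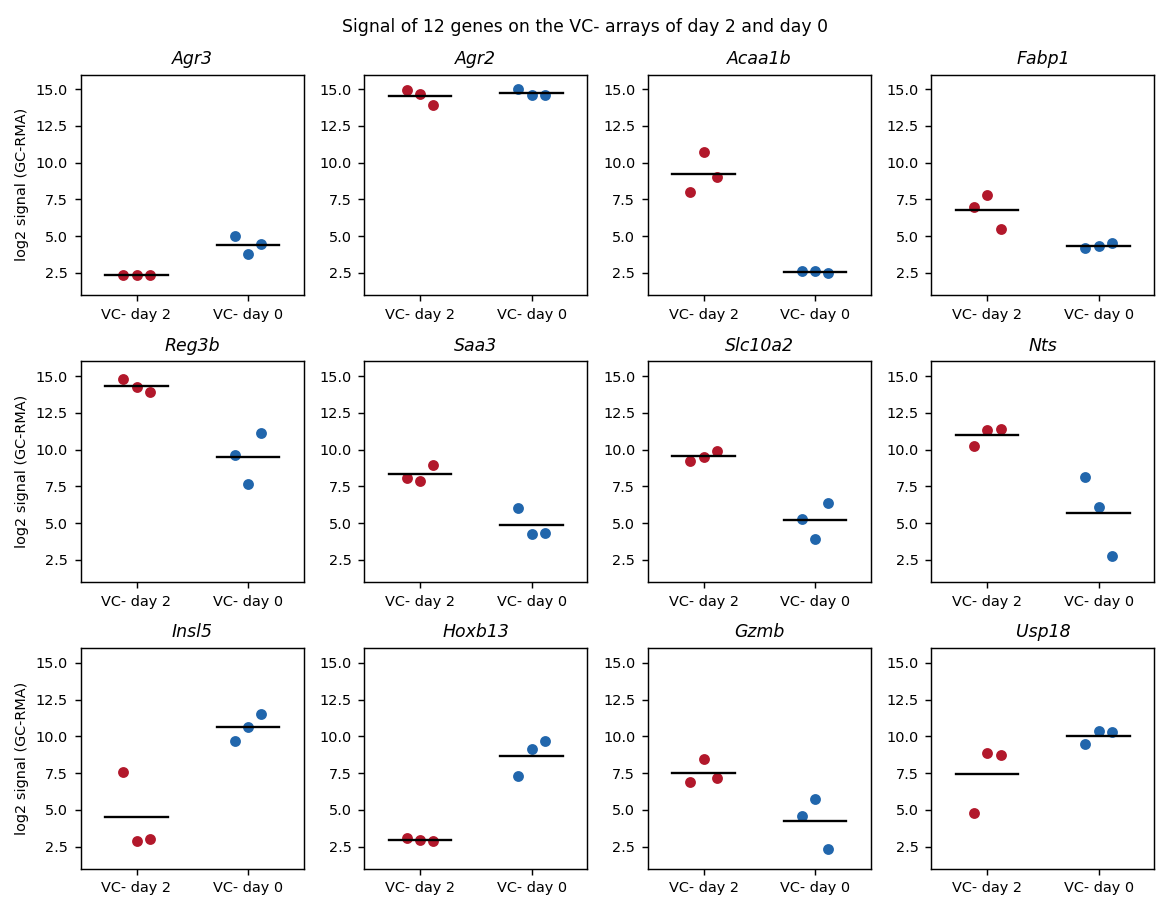
Log2 signal (vertical axis) of 12 genes on the 3 VC- arrays of day 2 (red, left) and the 3 of day 0 (blue, right), with the group mean as a line. Agr3 lies at 2.35 to 2.38 at day 2 and at 3.78 to 5.02 at day 0, and Hoxb13 lies at 2.88 to 3.08 at day 2 and at 7.29 to 9.67 at day 0.

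Among the large differences were those of genes that mark a place along the colon. Hoxb13 was at 3.08, 2.95 and 2.88 at day 2, against 7.29, 9.13 and 9.67 at day 0, with no array in between. Hoxa13, also of the hindgut end, was at 4.80, 3.32 and 3.31 at day 2 and at 5.98, 4.85 and 5.35 at day 0. Hoxa9 was at 10.60, 7.87 and 7.61 at day 2 and at 10.77, 10.99 and 10.66 at day 0, so that VC- day 2 replicate 1 lay next to the day 0 arrays. Other Hox genes ran the opposite way. Hoxd10 was at 6.18, 7.89 and 7.17 at day 2 and at 2.45, 2.42 and 2.42 at day 0, and Hoxb6 was at 5.89, 8.18 and 7.65 at day 2 and at 3.92, 3.70 and 3.45 at day 0. Hox genes of groups 3 to 8 are expressed further forward. Of 7 tested, 4 were higher on all day 2 arrays (Hoxb6, Hoxb3, Hoxd8 and Hoxb5) and none was lower on all. The median of the 7 was 1.43, and 0.90 without VC- day 2 replicate 2. It was 0.14 with the Hoxb13 term and -0.86 in VC+ mice. Of 8 tested genes of groups 9 to 13, 2 were higher on all (Hoxd10 and Hoxd9) and 3 lower on all (Hoxb13, Hoxa9 and Hoxa13). Among all genes, 7.83% were higher and 6.61% lower on all day 2 arrays. The median of groups 9 to 13 was -0.88, and -0.59 without VC- day 2 replicate 2. It was 0.97 in VC+ mice, and -0.35 with the Hoxb13 term, which leaves Hoxb13 itself out. In VC- mice the day and the level of Hoxb13 go together on all 6 arrays, so day 2 of DSS and the place where the tissue was taken cannot be told apart.

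Hormone genes of the gut epithelium split in the same manner. Insl5, the hormone of L cells of the distal colon, was at 7.56, 2.91 and 3.03 at day 2, against 9.70, 10.62 and 11.53 at day 0. Nts, which encodes neurotensin, a peptide of the ileum and proximal colon, was at 10.21, 11.31 and 11.43 at day 2 and at 8.13, 6.10 and 2.74 at day 0. Their log2 fold changes were -6.12 and 5.33, and with the Hoxb13 term they were -1.95 and 0.55. Of 13 tested enteroendocrine genes, 5 were higher on all day 2 arrays (Nts, Sct, Chga, Chgb and Sst) and 3 lower on all (Insl5, Pyy and Gcg). These counts stand beside 7.83% and 6.61% of all genes. Sct, the precursor of secretin, differed by 2.52, and Pyy and Gcg, both of L cells, by -1.01 and -0.51.

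Genes of bile acid handling, which is a task of the ileum and to a lesser degree of the proximal colon, had large positive differences in the 3 genes shown, which were picked with their values in view, and none passed the test. Slc10a2, the apical sodium and bile acid carrier, was at 9.21, 9.51 and 9.88 at day 2 and at 5.28, 3.93 and 6.35 at day 0. Slc51a, the alpha subunit of the basolateral exporter, was at 8.51, 10.05 and 9.60 at day 2 and at 4.38, 4.53 and 3.71 at day 0. Fabp6, which binds bile acids inside the cell, was at 7.79, 10.27 and 9.10 at day 2 and at 5.77, 6.19 and 5.99 at day 0. All 3 genes were separated between the days without overlap, with log2 fold changes of 4.35, 5.18 and 3.07, and with the Hoxb13 term of 1.32, 1.04 and 0.25. Slc51b, the beta subunit of the exporter, overlapped (1.12). Slc10a2 and Fabp6 belong to a list of small intestine and cecum genes. Of its 7 tested genes, 3 were higher on all day 2 arrays and none lower on all, beside 7.83% and 6.61% of all genes. Its median log2 fold change was 2.13, and it was 0.89 without VC- day 2 replicate 3, 1.01 with the Hoxb13 term and -1.56 in VC+ mice. Genes of colonocyte transport and the brush border had no common direction. Of 31 tested, 4 were higher on all day 2 arrays and 6 lower on all, beside 7.83% and 6.61% of all genes. The median was -0.13. When VC- day 2 replicate 2 was left out, 11 were higher and 6 lower, and the median was 0.0085. The channels and the pump described next are among those that lay lower. The water channel gene Aqp4 was at 9.88, 5.13 and 6.19 at day 2 and at 10.73, 10.86 and 10.91 at day 0. Aqp8, another water channel, was at 10.61, 8.0 and 12.42 at day 2 and at 12.88, 13.04 and 13.11 at day 0. The proton pump subunit Atp12a of the colon was at 5.64, 6.19 and 5.41 at day 2 and at 6.99, 9.99 and 10.98 at day 0, a log2 fold change of -3.57 that became 0.14 with the Hoxb13 term. General epithelial genes of the same list, such as Vil1 (0.18), Krt20 (-0.02) and Slc26a2 (0.18), overlapped between the days.

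S100g, which encodes the vitamin D dependent calcium binding protein of the gut, had the largest difference of all genes tested, at 8.98, 8.86 and 11.73 at day 2 against 2.32, 4.05 and 1.85 at day 0. Its log2 fold change was 7.11 (limma, adjusted p = 0.923), and 5.41 with the Hoxb13 term. Slc30a10, an exporter of manganese, was at 5.89, 6.07 and 9.57 at day 2 and at 3.34, 3.31 and 2.66 at day 0. Both were highest on VC- day 2 replicate 3. Vnn1, a pantetheinase of the epithelium that is also a PPAR α target in mouse liver, was at 9.45, 9.86 and 8.04 at day 2 and at 4.90, 4.79 and 4.51 at day 0, and kept a log2 fold change of 3.47 with the Hoxb13 term, against 4.38 without it. Arg2, the mitochondrial arginase, was at 8.17, 7.73 and 8.81 at day 2 and at 3.49, 3.74 and 2.85 at day 0. The gene with the lowest level at day 2 relative to day 0 was Sval1, a member of the seminal vesicle antigen family, at 10.95, 5.39 and 4.57 at day 2 and at 12.08, 13.78 and 13.64 at day 0. On VC- day 2 replicate 1 Sval1, Insl5, Aqp4 and Hoxa9 all lay closer to the day 0 arrays than on replicates 2 and 3.

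Enzymes that handle foreign compounds were higher at day 2 in part. Of 43 tested genes, 15 were higher on all day 2 arrays and 1 (Adh1) lower on all, beside 7.83% and 6.61% of all genes. The median log2 fold change of this list was 0.56, and it was 0.06 with the Hoxb13 term and -0.36 in VC+ mice. Ces1g, a carboxylesterase, was at 9.77, 11.70 and 11.84 at day 2 and at 7.80, 7.66 and 4.16 at day 0. Its relative Ces2a was at 12.92, 12.86 and 11.53 at day 2 and at 10.72, 9.43 and 6.78 at day 0. Carboxylesterase genes are close copies of each other, so their probe sets may share signal, which was not tested. Gclc, the rate-limiting enzyme of glutathione synthesis, differed by 1.02 and its partner Gclm by 0.98, both without overlap, while Nqo1 (1.00) overlapped.

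**Figure D3:**
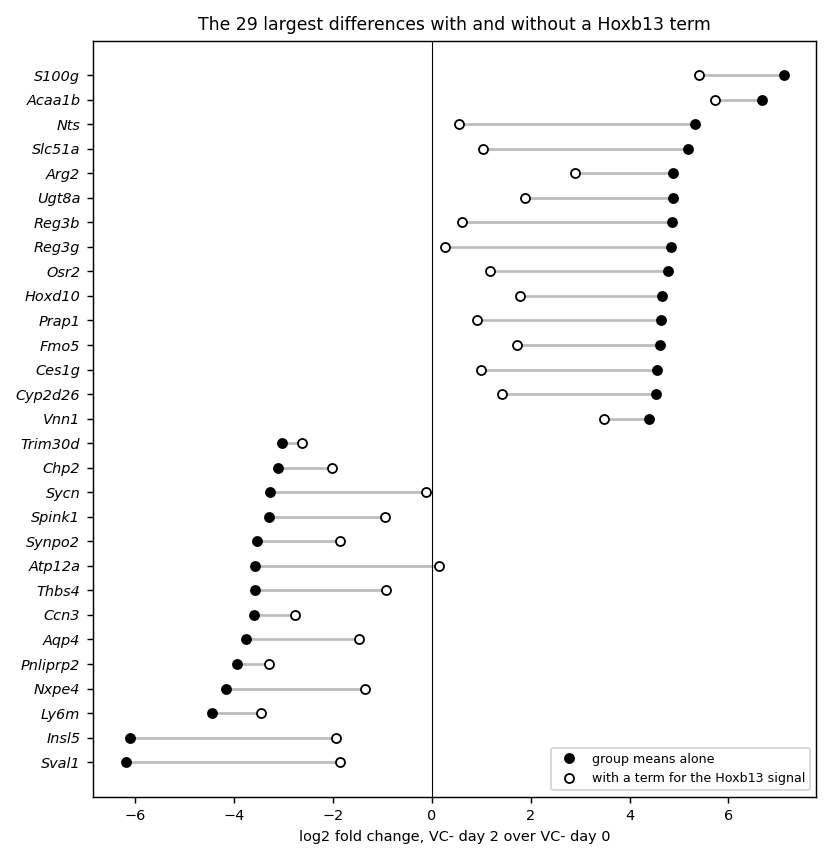
Log2 fold change of VC- day 2 over VC- day 0 (horizontal axis) for the 15 largest positive and the 14 largest negative differences without overlap other than Hoxb13 (rows), from group means alone (filled) and with a term for the Hoxb13 signal in the fit of 22 arrays (open). The median of the positive differences is 4.84 without the term and 1.42 with it, and among the positive ones Acaa1b (5.72 with the term), S100g (5.41) and Vnn1 (3.47) keep the highest values.

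For the 15 largest positive differences without overlap, the median log2 fold change was 4.84, and 1.42 with the Hoxb13 term, and 12 of the 15 became smaller by more than 1.5 times. For the 14 largest negative differences other than Hoxb13 itself the median was -3.59, and -1.86 with the term, and 10 of the 14 became smaller by more than 1.5 times. These genes were picked for their size, so the medians without the term only describe. The term draws on the VC+ and day 7 arrays, in which Hoxb13 varies within groups. On no VC- array of day 2 was Hoxb13 above 3.08.

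Genes of defense at the epithelial surface were high at day 2 for a few members only. Reg3b and Reg3g encode secreted lectins that kill or repel bacteria near the epithelium. Reg3b was at 14.81, 14.26 and 13.90 at day 2 and at 9.63, 7.63 and 11.14 at day 0, and Reg3g was at 13.27, 11.95 and 12.08 at day 2 and at 7.94, 5.89 and 8.94 at day 0. Both genes ordered the 6 arrays nearly alike, with the lowest level on VC- day 0 replicate 2. Their log2 fold changes were 4.85 (limma, adjusted p = 1) and 4.84 (adjusted p = 1), and 0.60 and 0.27 with the Hoxb13 term. Saa3, an acute phase protein made locally in the gut, was at 8.07, 7.89 and 8.95 at day 2 and at 6.05, 4.23 and 4.31 at day 0. Its relatives Saa1 and Saa2 were lower on all day 2 arrays (-0.84 and -0.80), and so was Ccl28, a chemokine of the mucosal epithelium (-1.22). Of the 18 tested genes of this list, 3 were higher on all and 3 lower on all, beside 7.83% and 6.61% of all genes. The median was -0.38. It lay between -0.25 and -0.17 without any 1 of VC- day 2 replicate 3 and VC- day 0 replicates 1, 2 and 3. The median changed direction with the Hoxb13 term (0.24) and was 0.18 in VC+ mice.

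The start regions of Reg3b and Reg3g are printed side by side because both genes moved together and their probe sets measure related sequences. The windows from RefSeq (build GRCm38.p6) are chr6:78370635-78370934 on the plus strand for Reg3b and chr6:78468825-78469124 on the minus strand for Reg3g, and the capitals mark the longest run of bases that both share, 29 bases from 20 before the start to 8 after it.
Reg3b: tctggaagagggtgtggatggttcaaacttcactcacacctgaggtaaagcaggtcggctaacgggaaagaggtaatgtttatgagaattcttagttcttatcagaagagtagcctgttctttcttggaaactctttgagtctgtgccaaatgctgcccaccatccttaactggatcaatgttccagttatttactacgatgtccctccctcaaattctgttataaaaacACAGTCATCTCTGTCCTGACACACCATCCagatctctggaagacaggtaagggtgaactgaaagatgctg
Reg3g: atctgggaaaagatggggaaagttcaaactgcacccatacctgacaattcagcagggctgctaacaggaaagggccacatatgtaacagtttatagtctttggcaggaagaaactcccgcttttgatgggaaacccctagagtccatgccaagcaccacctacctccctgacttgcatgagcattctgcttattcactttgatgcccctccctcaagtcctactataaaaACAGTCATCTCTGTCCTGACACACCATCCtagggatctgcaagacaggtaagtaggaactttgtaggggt
Of the 32851 windows, 2 hold this run, those of Reg3b and Reg3g. A TATA motif, spelled TATAAA and searched on both strands, lies just before the run in both, and 13.6% of all windows hold that motif.

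Il6, Tnf and S100a8, genes of overt colitis, were near background at day 2. Il6 was at 2.13 to 2.18 at day 2 and at 2.14 to 2.16 at day 0, and Tnf, which the variance filter left out, was at 2.36 to 2.46 at day 2 and at 2.35 to 2.52 at day 0. S100a8, the calprotectin gene of neutrophils, was at 2.92 to 3.25 at day 2 and at 2.82 to 2.88 at day 0. Il1b overlapped between the days, at 4.39, 5.31 and 4.11 at day 2 and at 4.61, 3.92 and 3.50 at day 0. At day 7 the same VC- comparison, with the same day 0 arrays, gave log2 fold changes of 7.33 for Il6, 7.97 for S100a8 and 5.76 for Il1b. Of 25 tested cytokine and chemokine genes, 4 were higher on all day 2 arrays, beside 7.83% of all genes, and none was lower on all. Without VC- day 2 replicate 3 the number higher was 9, and it was also 9 when VC- day 0 replicate 1 was the array left out. With all 6 arrays the 4 were Ccl5, which attracts T cells (2.43), the small intestinal chemokine Ccl25 (1.15), Ccl8 (1.05) and Ccl7 (0.20). Ccl7 stayed near background. The median of this list was 0.15, and it was 0.35 with the Hoxb13 term and -0.0015 in VC+ mice.

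Markers of T cells and of macrophages had positive differences, and none of them passed the test. Of 8 tested markers of T cells and intraepithelial lymphocytes, 5 were higher on all day 2 arrays and none lower on all. These counts stand beside 7.83% and 6.61% of all genes. The markers had a median of 1.37, which was 0.86 with the Hoxb13 term, 0.79 without VC- day 2 replicate 2 and -1.26 in VC+ mice. Gzma, a granzyme of cytotoxic cells, was at 8.73, 10.13 and 9.07 at day 2 and at 6.52, 7.31 and 3.13 at day 0. Gzmb was at 6.90, 8.46 and 7.20 at day 2 and at 4.61, 5.73 and 2.34 at day 0. For both the lowest array was VC- day 0 replicate 3, the one with Prss2 signal, and without it and the other arrays with such signal the log2 fold changes were 2.39 for Gzma and 2.35 for Gzmb, against 3.66 and 3.29 with them. Cd3g, a subunit of the T cell receptor complex, was at 3.48, 6.49 and 5.39 at day 2 and at 3.23, 3.24 and 3.21 at day 0. In bulk tissue more cells of a type and more RNA per cell cannot be told apart.

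Of 22 tested macrophage and monocyte markers, 8 were higher on all day 2 arrays, beside 7.83% of all genes, and none was lower on all, with 14 higher without VC- day 2 replicate 3. All 22 differences were above 0, from 0.06 to 1.16, with a median of 0.51, and the median was 0.62 with the Hoxb13 term and 0.64 in VC+ mice. Aif1, a cytoskeletal protein of macrophages, was at 7.96, 8.76 and 8.13 at day 2 and at 6.96, 7.59 and 6.81 at day 0. The signaling adaptors Fcer1g (0.97) and Tyrobp (0.93), the pore protein gene Mpeg1 (0.93) and the growth factor receptor Csf1r (0.70) also did not overlap, while Adgre1 (0.38) and Cd68 (0.86) did. Genes of antigen presentation by MHC class II had a median of 0.91 over 10 tested, with 3 higher on all day 2 arrays, beside 7.83% of all genes. The median was 0.59 without VC- day 2 replicate 1 and -0.63 in VC+ mice, and 7 genes were higher when VC- day 2 replicate 3 was left out. H2-DMa, which loads peptides, was at 7.91, 7.09 and 6.33 at day 2 and 5.36, 5.84 and 4.78 at day 0. H2-Aa (1.15) and Cd74 (1.01) overlapped, with VC- day 2 replicate 3 among the day 0 arrays for both. None of 9 tested markers of B and plasma cells was without overlap, and their median was -0.07.

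Interferon-stimulated genes tended to lie lower at day 2, and none passed the test. Of 30 tested, 14 were lower on all day 2 arrays and 2 higher on all, beside 6.61% and 7.83% of all genes, with a median of -0.999. Usp18, a protease that dampens the type I interferon receptor, was at 4.78, 8.90 and 8.73 at day 2 and at 9.51, 10.36 and 10.32 at day 0. Rsad2, an antiviral enzyme, was at 5.15, 6.37 and 6.81 at day 2 and at 7.76, 7.94 and 9.18 at day 0. Ifi27l2a was at 9.94, 11.65 and 11.92 at day 2 and at 13.39, 13.80 and 12.60 at day 0. VC- day 2 replicate 1 was the lowest array for all 3. The mean of the list relative to its mean on the 6 arrays was -1.30, 0.14 and 0.11 at day 2 and 0.01, 0.72 and 0.32 at day 0, so the days overlapped, and without VC- day 2 replicate 1 the median log2 fold change was -0.49. The 2 genes that were higher on all day 2 arrays were the transcription factor genes Irf8 (1.19), of myeloid cells, and Irf1 (0.56), and genes induced mainly by interferon γ, such as Cxcl9 (2.16) and Iigp1 (1.55), overlapped. The median of the list was -0.83 with the Hoxb13 term and -0.59 in VC+ mice.

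Genes of the cell cycle lay lower at day 2 on average, with wide spread among the day 2 arrays. All 33 tested mitosis genes had a log2 fold change below 0, from -1.92 to -0.38, with a median of -0.88. Of these, 7 were lower on all day 2 arrays, beside 6.61% of all genes. The median was -0.55 with the Hoxb13 term and -1.33 in VC+ mice. Prc1, which bundles microtubules in dividing cells, was at 5.95, 4.68 and 7.19 at day 2 and at 7.23, 7.33 and 7.78 at day 0. The mean of the list relative to its mean on the 6 arrays was -0.64, -1.13 and 0.40 at day 2 and 0.35, 0.37 and 0.65 at day 0, so VC- day 2 replicate 3 lay with the day 0 arrays. Without that array the median was -1.32 and 31 of the genes did not overlap, and the median was -0.57 without VC- day 2 replicate 2. Leaving out an array can raise such a count and cannot lower it, in this list as over all genes. The share over all genes without that array is not given, so these counts only describe. DNA replication genes gave a median of -0.51 over 41 tested. On all day 2 arrays 9 were lower and none higher, beside 6.61% and 7.83% of all genes. Among the lower ones was Tk1, the thymidine kinase of S phase, at 5.88, 5.59 and 6.89 at day 2 and 7.01, 7.02 and 7.86 at day 0. That number of lower genes was 30 if VC- day 2 replicate 3 was left out, and 20 if instead VC- day 0 replicate 1 was. Of 18 tested genes that mark the crypt base or answer to Wnt, 3 were lower on all day 2 arrays and 1 higher on all. These counts stand beside the same 6.61% and 7.83% of all genes. The median of the 18 was -0.30. It became -0.15 without VC- day 2 replicate 1 and -0.17 if VC- day 0 replicate 1 was dropped instead. Ascl2, the transcription factor of stem cells in the crypt, was at 3.36, 4.82 and 4.39 at day 2 and at 6.53, 4.91 and 4.97 at day 0. Axin2, a direct target of Wnt signaling, was at 5.81, 5.81 and 5.05 at day 2 and at 6.71, 6.47 and 5.89 at day 0.

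Goblet cell genes mostly lay somewhat lower at day 2, with 24 of 30 tested below 0, and Agr3 alone passed the test. Muc2, the main secreted mucin, and Tff3, a peptide that is secreted with it, overlapped between the days. Muc4, a mucin of the cell membrane, was at 11.73, 11.11 and 11.13 at day 2 and at 12.70, 13.47 and 12.89 at day 0, and Muc1, another one, was at 3.58, 1.97 and 1.90 at day 2 and at 3.74, 5.51 and 4.88 at day 0. Of the 30 genes of goblet cells and mucus, 6 were lower on all day 2 arrays, Agr3 included, and 1, B4galnt2, was higher on all. Over all genes these shares were 6.61% and 7.83%. The median of the list was -0.24, and it was -0.21 with the Hoxb13 term and 0.14 in VC+ mice. Without VC- day 2 replicate 1 the median was -0.45 with 15 genes lower, and it was -0.13 if replicate 3 of the same day was left out, while dropping VC- day 0 replicate 3 gave 10 lower. The goblet cell transcription factor Spdef differed by -0.76, and Clca1 (-0.91) and Fcgbp (-1.07), both secreted into the mucus, overlapped.

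Genes of the circadian clock were split among the day 2 arrays. Arntl, the core activator of the clock, was at 9.57, 6.26 and 5.95 at day 2 and at 8.96, 8.41 and 9.61 at day 0. Dbp, an output gene of the clock, was at 6.89, 11.74 and 12.18 at day 2 and at 9.63, 9.32 and 7.85 at day 0. VC- day 2 replicates 2 and 3 thus stood apart from replicate 1 in both genes and in opposite directions, and Arntl was called when replicate 1 was left out (limma, log2 fold change -2.89, adjusted p = 0.00958). The hour at which tissue was taken is not given in the sources used here, and its part in these values was not tested.

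Smooth muscle genes had a median of -0.59 over 22 tested, with 2 lower on all day 2 arrays, Synpo2 (-3.53) and Kcnmb1 (-1.42), and none higher on all. These counts stand beside 6.61% and 7.83% of all genes. The median was -0.51 with the Hoxb13 term and 0.84 in VC+ mice. It was -0.39 when VC- day 2 replicate 2 was left out and likewise for VC- day 0 replicate 1. With VC- day 2 replicate 1 left out it was -0.90, with 15 genes lower on all remaining day 2 arrays. Synpo2 differed by 0.54 by its brightest probe set. The mean of the list relative to its mean on the 6 arrays was -0.80 to 0.42 at day 2 and 0.02 to 0.71 at day 0, so these genes varied within each day as well, and the part of muscle in other results was not tested. Of 52 tested genes of lysosomes and cathepsins, 10 were higher on all day 2 arrays and 1 lower on all, beside 7.83% and 6.61% of all genes, and 17 were higher without VC- day 0 replicate 3. Their median was 0.14, while Lamp1 (0.12) and Lamp2 (0.13) overlapped. The respiratory chain (29 tested, median -0.01), cholesterol synthesis (19, 0.12), MHC class I (14, 0.15) and endothelium (14, -0.08) had no gene without overlap over the 6 arrays. Of all genes, 7.83% were higher and 6.61% lower by that reading. With fewer arrays genes without overlap appeared in these lists. There were up to 10 lower in the respiratory chain without VC- day 2 replicate 3 (median -0.15). Cholesterol synthesis had 4 higher without VC- day 2 replicate 2, and MHC class I had 4 higher without VC- day 2 replicate 1.

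**Figure D4:**
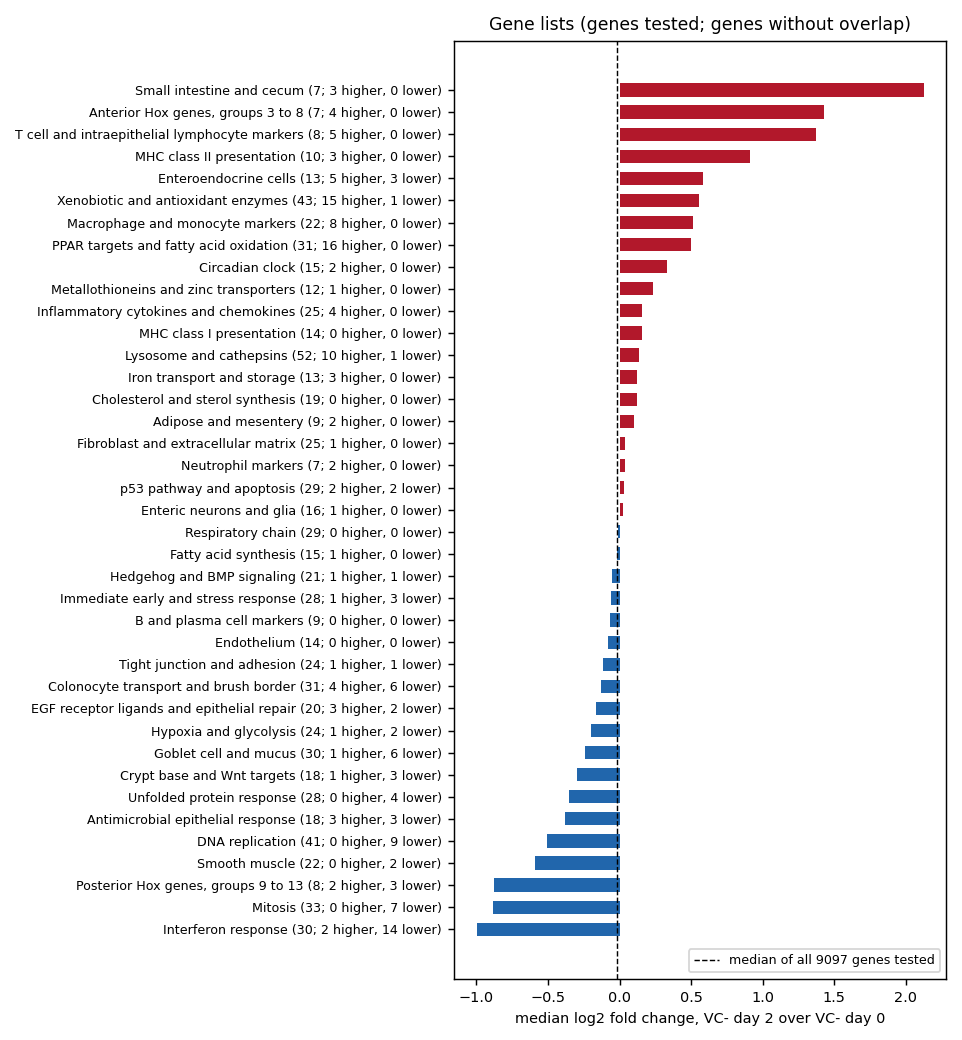
Median log2 fold change of VC- day 2 over VC- day 0 (horizontal axis) for 39 gene lists with 7 or more genes tested (rows), with the number tested and the numbers higher and lower on all day 2 arrays in parentheses. The lists of small intestine and cecum (2.13), anterior Hox genes (1.43), T cells (1.37) and MHC class II (0.91) lie furthest to the right, and interferon response (-0.999), mitosis (-0.88) and posterior Hox genes (-0.88) furthest to the left.

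The same step from day 0 to day 2 was measured in VC+ mice, on 5 and 3 arrays that enter none of the VC- means. They do enter the shared spread of the fit, the choice of probe sets and the variance filter. Of the 168 genes that were higher in VC- mice at day 2 without overlap and by at least 1, 39 had a log2 fold change above 0 in VC+ mice and 129 below 0 (76.8%, beside 52.9% of all genes tested), with a median of -0.69. Of the 171 that were lower, 93 had one above 0 in VC+ mice (54.4%, beside 47.1% of all), with a median of 0.17. Among the 15 genes with the largest positive differences 13 were below 0 in VC+ mice, the exceptions being Acaa1b (0.43) and Vnn1 (1.17), and among the 14 with the largest negative differences other than Hoxb13 12 were above 0. Hoxb13 runs the other way there, at 12.42, 3.07, 9.45, 10.44 and 11.19 on the VC+ arrays of day 2 and at 12.42, 3.09 and 2.88 on those of day 0. Genotype, day and Hoxb13 level therefore overlap in this comparison, and their parts were not tested apart.

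**Figure D5:**
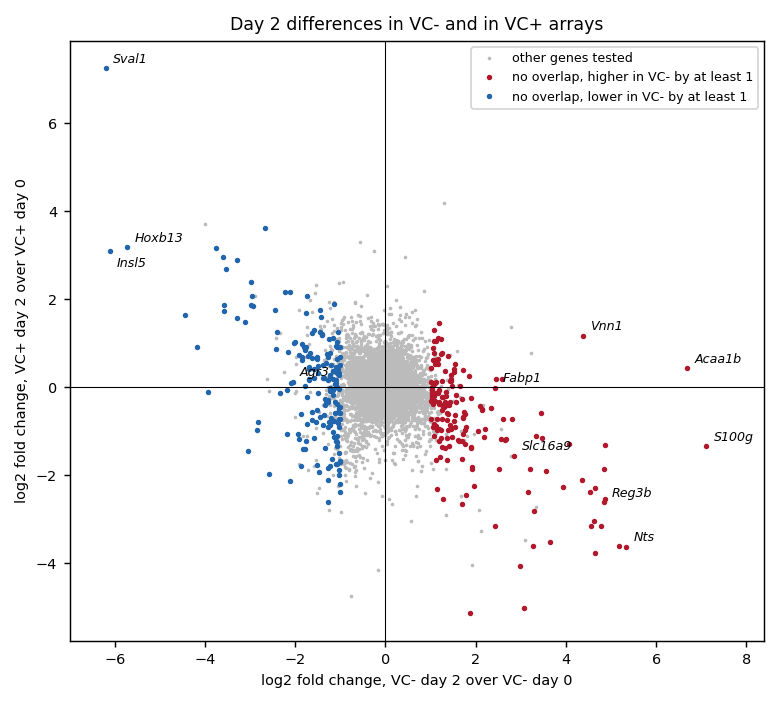
Log2 fold change of day 2 over day 0 in VC+ mice (vertical axis, 5 and 3 arrays) against that in VC- mice (horizontal axis, 3 and 3 arrays) for 9097 genes, with genes without overlap and a difference of at least 1 in VC- mice in color. Genes such as Sval1 (-6.20 in VC- against 7.26 in VC+ mice) and Nts (5.33 against -3.62) lie in opposite corners, while Acaa1b and Fabp1 lie near 0 in VC+ mice.

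The difference of the responses, VC+ minus VC-, passed the test for 2 genes (0.022% of those tested), and 588 reached an unadjusted p under 0.05 (6.46%). For Agr3 the difference was 2.19 ± 0.37 (SE, limma, adjusted p = 0.0486), with low VC+ arrays at both days. Slc16a9, of the monocarboxylate carrier family, was at 8.19, 7.19 and 8.66 in VC- mice at day 2, against 6.38, 5.09 and 4.00 at day 0. In VC+ mice it was at 5.56, 5.79, 4.01, 4.77 and 4.25 at day 2, against 6.34, 6.16 and 6.81 at day 0. The days did not overlap in either genotype and lay in opposite order, and the difference of the responses was -4.41 ± 0.71 (SE, limma, adjusted p = 0.0486). Within VC- mice alone Slc16a9 had a log2 fold change of 2.85 (limma, adjusted p = 0.0613), and of 2.28 by its brightest probe set (adjusted p = 0.195). Both differences lost the call when some single arrays were left out, with adjusted p values up to 0.207 for Agr3 and 0.198 for Slc16a9, in each case without VC- day 0 replicate 3, and with the Hoxb13 term Slc16a9 lost it too (adjusted p = 0.516) while Agr3 did not (0.0123).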

How the data were processed

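RNA from homogenized colonic tissue was hybridized to Affymetrix mouse arrays, 1 per sample. The authors processed the arrays in R 2.10.1 with GC-RMA, which corrects background and normalizes the arrays together, and deposited log2 values per probe set; these were used as deposited. The values run from 0.58 to 16.76, the medians of the 6 arrays from 3.43 to 3.53, and 41.2% of values on these arrays lie under 3, among dim probe sets. The number of arrays limits the precision. Of 45101 probe sets, 34958 carry 1 gene in the platform annotation, 932 carry several or none and 9211 are not listed. The 34958 gave 18194 genes, under RefSeq names for the 34754 probe sets whose gene RefSeq knew. Each gene was read from its most variable probe set, by interquartile range. Group means of the 6 groups over the 22 arrays were modeled in limma 3.58.1 (R 4.3.3) for the upper 50% by interquartile range (9097 genes), with empirical Bayes moderation, two-sided tests and Benjamini-Hochberg adjustment at 0.05. The fit left out and imputed no sample. The procedure was also run on simulated data with independent noise for each gene. These held no differences shared by many genes of an array, such as those that go with Hoxb13, Prss2 or Xist.

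The replicate numbers were checked as pairs. Deviations from the group means correlated at 0.55, 0.36 and 0.21 for the same-numbered VC- arrays of days 2 and 0, and at -0.38 to 0.05 for the others, so the blocked fit is given where it changes a call. Genes to name were drawn from every called gene, genes the study names, the 5 genes most like a called gene, and array properties. Also drawn on were the 15 largest rises and falls without overlap whose higher group is at 4 or more on every array. Each list added up to 4 genes without overlap and its markers. The text describes only part of these genes. The largest rises and falls other than Hoxb13 are rows of the plot of log2 fold changes with and without the Hoxb13 term. Any gene outside these groups was picked with its values in view. The comparison and the 44 gene lists (1142 genes, 1048 measured, 814 tested) were chosen with earlier results of these data known. Alternatives left out arrays, changed filters, probe sets, weights and normalization, or added terms for Hoxb13 and Xist. Columns of no other series were in the table.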

Additional observations from a re-analysis of the deposited data

Results flagged for a closer look

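Agr3 stood out because its day 2 response differed between the genotypes, with a difference of the log2 fold changes, VC+ minus VC-, of 2.19 ± 0.37 (SE, limma, adjusted p = 0.0486). Slc16a9 stood out in the same test with a difference of -4.41 ± 0.71 (SE, limma, adjusted p = 0.0486). All 3 VC- arrays of day 2 were above those of day 0 for Slc16a9, and all 5 VC+ arrays of day 2 were below those of day 0. Groups of 3 arrays are too small for a check of single outlying arrays.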

How the results depend on the processing

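The count of 1 called gene became 0 with the replicate block over the 6 arrays, with a filter on signal in place of variance and without arrays with Prss2 signal, 3 with no variance filter and with array weights, and 8 with only the 6 arrays in the fit. The 8 were Acaa1b, Arg2, Hoxb13, Hoxd10, Nxpe4, Osr2, Slc51a and Vnn1, and Agr3 was not among them. Leaving out 1 array gave 1 to 3 called genes. There were 3 when VC- day 2 replicate 1 or 3 was left out and 2 when VC- day 0 replicate 1 was. The other alternatives gave 1 gene, which was Agr3 except with only the 10 VC- arrays, where it was Acaa1b. The replicate block within the 22 arrays, and leaving out arrays for the gene lists were chosen after seeing the data, and the block changed no call. Genes without overlap and with a difference of at least 1 numbered 150 to 295 higher and 177 to 407 lower when 1 array was left out, with the top of both ranges without VC- day 2 replicate 1. With a difference of at least 0.5 they numbered 456 higher and 410 lower, and with any size 712 and 601. The difference of the responses was called for 340 genes with array weights, for 0 with no variance filter or without arrays with Prss2 signal, and for 0 to 38 when 1 array was left out, with 38 when VC+ day 0 replicate 1 was dropped and 0 when any of VC- day 0 replicate 3, VC+ day 0 replicates 2 and 3 and VC+ day 2 replicates 3, 4 and 5 was. The cause was not tested. The alternatives gave 701 values for 37 of the genes drawn for naming, not all of which the text describes. Of these values, 680 kept their direction and side of the threshold, 13 newly passed it, 4 no longer did (Agr3 in each) and 4 changed direction. These were Agr2, at -0.45 to 0.073 when 1 array was left out, with the positive value without VC- day 2 replicate 3, Agr2 with the Hoxb13 term (0.12), Atp12a with the Hoxb13 term (0.14), and Synpo2 with its brightest probe set (0.54). Most of the 37 genes were picked because their arrays did not overlap, so leaving out 1 array could not reverse them. Most also lay far from the threshold at the start, so these counts only describe. A kept direction does not mean a kept size. With the Hoxb13 term Nts went from 5.33 to 0.55 and Reg3g from 4.84 to 0.27. No array has a measured depth, and genes near background limit fold changes from below.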
